A study of Mus musculus with 3 samples.

Results

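Of 55681 array probes measured in myeloid cells from mouse skin wounds, 16251 belong to the series whose names start with A_30_P, which Agilent designed against long intergenic noncoding RNAs. The members were chosen by this start of the name alone, which takes no measured value into account, and they make up 29.2% of the probes. They were compared with the 39430 remaining probes, whose names start with A_51_P, A_52_P, A_55_P, A_65_P or A_66_P and which are by design directed mainly at annotated genes. The deposited table does not pair any probe with a gene, so that the members are a noncoding RNA series by the design of the manufacturer, and neither their transcripts nor the sorted cells could be checked against gene markers here.

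RNA was labelled with Cy3 and hybridized to 1 array for each of 3 cell types, all sorted from skin wounds of C57/B6 mice 3 days after wounding at 8 weeks of age. Ly6C+ macrophages (Ly6C+/F4/80+) are the inflammatory population that enters wounds from the blood, CX3CR1+ macrophages (CX3CR1+/F4/80+) are the tissue resident population, and neutrophils (Ly6G+/F4/80-) are short-lived granulocytes. Under T cell receptor and natural killer cell pathways the study lists Cd3e, Cd8b1 and Gzmb as lower in Ly6C+ than in CX3CR1+ macrophages. Other genes of these pathways, such as Tnf, it lists as higher. The part of lymphocytes in the CX3CR1+ values was not tested. The labels give the mice no transgene and no treatment besides the wound. Several mice gave the RNA, and pooling of their RNA on an array is not stated in the sources. With 1 array for a cell type there was no replicate check and no test, so that every comparison below is between these 3 arrays and their number limits the precision. Signals were taken as log2 values, since the base is not stated with the table, and 0 lies at the 75th percentile of each array. Hence a share of probes above 0 compares members with other probes within an array, whereas the height of one array against another rests on this scaling.

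Long intergenic noncoding RNAs are transcripts from between protein-coding genes that are capped, often spliced, and not translated into known proteins. As a class they are less abundant than messenger RNAs and tend to be more restricted to single tissues or cell types. Some act in myeloid cells of the mouse: lincRNA-Cox2 is induced in macrophages by ligands of Toll-like receptors and regulates immune genes, and Morrbid extends the life of neutrophils, eosinophils and monocytes by repressing the pro-apoptotic gene Bcl2l11. Whether any member measures these transcripts is not known here.

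The noncoding RNA probes were dim in all 3 cell types. In Ly6C+ macrophages 1568 members (9.65%) were above 0, compared with 31.4% of the other probes. In CX3CR1+ macrophages 1642 members (10.1%) were above 0, compared with 31.2%. In neutrophils 1941 members (11.9%) were above 0, compared with 30.4%. The other probes thus passed 0 at 3.25 times the rate of the members in Ly6C+ macrophages, 3.09 times in CX3CR1+ macrophages and 2.55 times in neutrophils. Under the 4 other scalings of the arrays tried here this ratio lay between 2.55 and 3.25, with neutrophils the lowest in 3 of them and CX3CR1+ macrophages the lowest after centring on E1A control rows, which are control spots of the array. The A_30_P series also stood below each of the other name series, since the lowest of those, A_66_P in Ly6C+ macrophages and in CX3CR1+ macrophages and A_52_P in neutrophils, had 25.5%, 25.6% and 24.8% of their probes above 0.

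The gap widened toward high signals. Above a log2 signal of 2 lay 3.90% of members and 18.1% of other probes in Ly6C+ macrophages, 3.74% and 17.0% in CX3CR1+ macrophages, and 4.71% and 16.7% in neutrophils. Above 4 lay 136 members in the Ly6C+ array, 118 in the CX3CR1+ array and 218 in the neutrophil array. In all 3 arrays members made up 7.90 to 8.22% of the probes above 4, compared with 11.3 to 13.9% of those above 0.

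At the other end of the scale the classes were close. In Ly6C+ macrophages 24.1% of members and 21.0% of other probes lay within 0.5 of the lowest value of the array, which was -8.78. In CX3CR1+ macrophages these shares were 21.9% and 18.7%, above a lowest value of -8.47, and in neutrophils 23.7% and 19.3%, above -7.44. Near the floor in all 3 arrays were 2381 members (14.7%) and 13.0% of other probes, whereas 11008 members (67.7%) were near it in none. Most members therefore lay between the floor and 0, with 66.2% in Ly6C+ macrophages, 68.0% in the CX3CR1+ array and 64.4% in the neutrophil array, where 47.6%, 50.2% and 50.3% of the other probes were found. The median member was at -5.41 in Ly6C+ macrophages, at -4.93 in the CX3CR1+ array and at -4.31 in the neutrophil array, and the median of the other probes was at -3.31, -2.99 and -2.67.

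The table also holds 96 rows named after ERCC standards, synthetic RNAs that can be added to a sample, and the sources do not say whether they were. Their median lay close to the floor, at -8.48, -8.18 and -7.06 in Ly6C+ macrophages, CX3CR1+ macrophages and neutrophils, and their highest values were -2.06, -1.90 and -1.14. Above the highest ERCC row of the array lay 3192 members (19.6%) in Ly6C+ macrophages, 3340 (20.6%) in the CX3CR1+ array and 3064 (18.9%) in the neutrophil array. For the other probes these shares were 42.9%, 43.0% and 38.5%. About 1 member in 5 was therefore brighter than every ERCC row, and the dim members between the floor and that row share a range with control rows.

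A member that was bright in one cell type was often bright in all. Of the 2317 members above 0 in any array, 1206 (52.1%) were above 0 in all 3 arrays, compared with 66.6% of the 14597 such other probes. Above 0 only in neutrophils were 592 members (25.6% of the 2317), compared with 12.4% of the other probes. Above 0 only in Ly6C+ macrophages were 54 members (2.33%), compared with 2.70% of the other probes, and only in CX3CR1+ macrophages 43 (1.86%), compared with 0.473%. Above 0 in both macrophage arrays but not in neutrophils were 279 members (12.0%), where the other probes had 14.7%. These overlaps were counted with the deposited values only, and they rest on that scaling. In neutrophils the members above 0 fell from 11.9% to 9.64% with centring on the medians and to 8.42% on the E1A rows. The other probes fell from 30.4% to 27.1% and 24.9%.

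Noncoding RNA probes of a given brightness peaked in Ly6C+ macrophages less often than other probes did. Of the 2317 members with a brightest value above 0, 625 (27.0%) were brightest in Ly6C+ macrophages, whereas the other probes gave 47.0% when weighted to the brightness of the members in bins of 1 log2. Neutrophils were brightest for 1464 members (63.2%), against 45.1% of the weighted other probes, and CX3CR1+ macrophages for 228 (9.84%), against 7.90%. Among members with a brightest value from 1 to 2, 28.6% peaked in Ly6C+ macrophages and 58.8% in neutrophils, compared with 53.6% and 36.6% of the other probes. From 2 to 3 these shares were 36.4% and 56.8% for members and 57.2% and 36.9% for other probes. Of the 14 bins that held 20 or more members, the share with a peak in Ly6C+ macrophages was lower for members in 11, and the 3 exceptions were the dimmest bin and the bins from 4 to 5 and from 5 to 6. In the bin from 4 to 5, which held 136 members, 29.4% of members and 22.2% of other probes peaked in Ly6C+ macrophages. Neutrophil peaks were more frequent among members in 9 of the 14 bins and less frequent in 5, those below -5 and those from 4 to 6. From 4 to 5 neutrophils were brightest for 70.6% of members and 76.6% of other probes, and from 5 to 6 for 97.8% and 98.1%.

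Which array is brightest rests on the scaling, but the lower share of Ly6C+ peaks among members was found with each scaling that was tried. With the arrays centred on their medians, 59.3% of members and 72.8% of weighted other probes peaked in Ly6C+ macrophages. Centred on the median of the other probes, the shares were 50.4% and 66.5%. After quantile normalization they were 23.2% and 41.1%, and centred on the E1A rows 31.4% and 44.0%. Neutrophil peaks were more frequent among members with each scaling, at 37.2% against 26.0%, 45.6% against 31.8%, 60.0% against 41.5% and 21.1% against 17.7% in the same order, so that the difference shrank to 3.39 percentage points on the E1A rows. For CX3CR1+ macrophages the difference of 1.94 percentage points changed sign after quantile normalization, to -0.59. The name series of the other probes also differed among themselves, here with the deposited values and without weighting to brightness. Neutrophil peaks were found in 33.6 to 55.9% and Ly6C+ peaks in 38.1 to 58.5% of their probes above 0. Members at 63.2% and 27.0% lay outside both ranges and nearest to A_55_P, which gave 55.9% and 38.1%.

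Ly6C+ and CX3CR1+ macrophages differed by 5-fold or more for few noncoding RNA probes. A total of 80 members (0.492%) had 5 or more times the CX3CR1+ signal in Ly6C+ macrophages, against 0.435% of all probes. The reverse, with CX3CR1+ macrophages higher by 5-fold or more, held for 291 members (1.79%), against 2.54% of all probes. Most of these members were dim, with a median Ly6C+ signal of -3.99 for the 80 higher members and a median CX3CR1+ signal of -4.82 for the 291 lower members. For 176 of the 291 lower members (60.5%) the Ly6C+ value lay within 0.5 of the floor of its array, so that their folds rest on that floor. The same held for 55.1% of the 1122 lower other probes. For 35 of the 80 higher members (43.8%) and 56.8% of the 162 higher other probes, the CX3CR1+ value lay within 0.5 of its floor. The median neutrophil signal of the 291 was -4.82, and for 147 (50.5%) it exceeded the CX3CR1+ signal, as it did for 76.3% of all members. Over the 1122 other probes past 5-fold in this direction the median was 0.47, and 84.4% had more signal in neutrophils, as had 67.1% of all other probes. Lower members made up 78.4% of those past 5-fold with the deposited values, 60.1% with centring on the medians, 64.8% with centring on the median of the other probes, 58.6% for quantile normalized arrays and 82.9% with centring on the E1A rows. For the other probes these shares were 87.4%, 78.5%, 81.1%, 78.9% and 89.6%.

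The balance between the macrophages depended on which members were counted. Of 1725 members whose brighter macrophage value was above 0, 10 (0.580%) were past 5-fold with Ly6C+ macrophages higher and 3 (0.174%) with Ly6C+ macrophages lower, whereas the other probes, weighted to the same brightness, gave 0.164% and 1.32%. The counts of other probes were 22 higher and 138 lower. Among the 2317 members above 0 in any of the 3 arrays, neutrophils included, 10 were higher and 58 lower, and with the brighter macrophage value above the median of its array 44 were higher and 65 lower, so that more members were lower under both of these filters. With the 4 other scalings, 10 to 12 members were higher and 1 to 6 lower, and weighted other probes gave 0.146 to 0.314% higher and 1.21 to 1.64% lower. All 138 lower other probes were brighter still in neutrophils than in CX3CR1+ macrophages, with a median neutrophil signal of 4.72, and the part of neutrophil signal in this count was not tested.

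All 10 higher members were also at least 5-fold above neutrophils, a second condition that their choice did not include. The same held for 18 of the 22 other probes chosen in this way. Their log2 signals were 0.97 to 2.80 in the Ly6C+ array, -3.26 to -0.40 in the CX3CR1+ array and -6.32 to -1.80 in the neutrophil array, and the gap between the Ly6C+ and CX3CR1+ values is set by how they were chosen. The difference between the macrophage arrays lay between 3.20 and 4.23 for all 10, with a median of 3.96, whereas CX3CR1+ minus neutrophil values ranged from 0.04 to 3.86. The same 10 of 2317 (0.432%) compare with 18 of 14597 other probes (0.117% when weighted to the brightness of the members), and the count of members was 10 with each of the 4 other scalings, where weighted other probes gave 0.110 to 0.235%.

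A_30_P01024571 had the largest gap of them, with a log2 signal of 0.97 in Ly6C+ macrophages, -3.26 in the CX3CR1+ array and -3.62 in the neutrophil array, which is 18.7-fold above the next array. A_30_P01020928 followed at 1.24, -2.90 and -3.77, or 17.7-fold. A_30_P01017643 was the brightest of these leading members, at 2.31, -1.80 and -2.74, or 17.2-fold. None of their lower values lay near a floor, since the closest, that of A_30_P01020928 in neutrophils, was 3.67 above the lowest value of its array. A_30_P01033227 gave 1.62, -2.39 and -3.23, and A_30_P01028762 gave 1.28, -2.70 and -3.70, so that these 5 members had nearly one profile, with CX3CR1+ values at most about 1 log2 above the neutrophil values. Among the remaining 5, A_30_P01027623, named here after its values were seen, had the lowest neutrophil signal, with 1.38 in Ly6C+ macrophages, -2.46 in the CX3CR1+ array and -6.32 in the neutrophil array. A_30_P01020672, likewise named after its values were seen, was the brightest of the 10 in Ly6C+ macrophages, at 2.80, -0.40 and -4.02. The numbers in their names are scattered over the series, and whether several of them target one transcript cannot be read from the table.

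The 3 members lower in Ly6C+ than in CX3CR1+ macrophages with a CX3CR1+ signal above 0 did not share a profile. A_30_P01019890 had -4.82 in Ly6C+ macrophages, 0.44 in the CX3CR1+ array and -3.98 in the neutrophil array, a 38.3-fold difference between the macrophages. It was the only member above 0 that was at least 5-fold brighter in CX3CR1+ macrophages than in both other arrays, while no other probe above 0 was, and with the 4 other scalings it remained the 1 such member beside 0 to 2 other probes. A_30_P01023118 had -1.95, 0.50 and 1.51 in the same order and A_30_P01033525, named here after its values were seen, had -0.96, 1.42 and 2.30, so that both were brightest in neutrophils. Their differences between the macrophage arrays, -2.45 and -2.37, were just past 5-fold. With the median centrings and quantile normalization only 1 of the 3 members stayed past it, and A_30_P01023118 was at -2.03 to -2.24.

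The remaining members that peaked in CX3CR1+ macrophages stood out less. A_30_P01025216 had -0.83 in Ly6C+ macrophages, 1.18 in the CX3CR1+ array and -7.42 in the neutrophil array, where it lay at the floor of the array. A_30_P01020100 had -0.852, 0.997 and -3.07, which is 3.60-fold above Ly6C+ macrophages. A_30_P01031671 gave -1.77, 0.17 and -1.49 and A_30_P01025334 gave -1.92, 0.05 and -1.58, which are 3.17-fold and 3.09-fold above the next array. Of the 228 members with a peak above 0 in CX3CR1+ macrophages, the median gap to the next array was 0.17.

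Against neutrophils, 643 members (3.96%) were past 5-fold with Ly6C+ macrophages higher and 2518 (15.5%) with neutrophils higher. Over all probes the shares were 6.07% and 14.6%, so that higher calls were less frequent among members and lower calls close to the background. When only probes whose brighter value was above 0 were counted, 177 of 2274 members (7.78%) were higher and 332 (14.6%) lower, compared with 11.1% and 11.4% of other probes of the same brightness. The direction of the balance rests on the scaling: lower members made up 79.7% of those past 5-fold with the deposited values, but 44.3% with centring on the medians, 54.9% with centring on the median of the other probes, 45.7% for quantile normalized arrays and 37.2% with centring on the E1A rows. The other probes turned in the same way, at 67.2%, 36.2%, 44.6%, 45.1% and 30.7% in the same order. The share of members higher in Ly6C+ macrophages stayed below that of weighted other probes in these 4 scalings, at 17.8% against 25.2%, 14.6% against 20.1%, 8.00% against 11.9% and 20.7% against 29.0% in the same order. The share lower in Ly6C+ macrophages was 6.94% against 7.64%, 8.37% against 8.43%, 13.3% against 10.8% and 5.41% against 6.75%, so that the larger share among members was found only with the deposited values and after quantile normalization.

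Between CX3CR1+ macrophages and neutrophils, 623 members (3.83%) were past 5-fold with the macrophages higher and 1298 (7.99%) with neutrophils higher, where all probes gave 5.2% and 9.48%. Both comparisons use the same neutrophil array. Of members whose brighter value was above 0, 159 of 2263 (7.03%) were higher and 226 (9.99%) lower, against 8.77% and 10.1% of other probes of the same brightness. Lower members made up 67.6% of those past 5-fold with the deposited values, 46.0% with centring on the medians, 53.3% with centring on the median of the other probes, 44.1% for quantile normalized arrays and 18.0% with centring on the E1A rows. The other probes lay close to this, at 63.7%, 46.1%, 52.0%, 48.5% and 22.0%. In any pair and either direction 3487 members (21.5%) were past 5-fold, against 22.3% of all probes.

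The control rows differed between the arrays as well. The 96 ERCC rows had a median difference of -0.27 for Ly6C+ minus CX3CR1+ macrophages, -1.32 for Ly6C+ macrophages minus neutrophils and -1.05 for CX3CR1+ macrophages minus neutrophils. The lowest values of the arrays differed by -0.30, -1.34 and -1.04, and the medians of the differences taken probe by probe over the members were -0.29, -1.28 and -0.99. The 10 E1A rows had median differences of 0.17, -1.17 and -1.38. Of the 96 ERCC rows, 0 passed 5-fold between the macrophage arrays, 5 were lower in Ly6C+ macrophages than in neutrophils and 1 was lower in CX3CR1+ macrophages than in neutrophils. Among members with a brightest value above 0 the median differences were -0.05, -0.72 and -0.71, and among such other probes 0.12, 0.01 and -0.15. These medians rest in part on the filter, which uses the highest of the values that are subtracted. Only through neutrophils did 592 of these members (25.6%) pass it, compared with 12.4% of the other probes. All of those probes are lower in both macrophage arrays than in neutrophils by this choice. How much of the medians follows from it was not tested.

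Of the 4 members with the largest differences between Ly6C+ macrophages and neutrophils, 3 had a value within 0.5 of the floor of an array. A_30_P01027157 had 1.96 in Ly6C+ macrophages and 1.64 in CX3CR1+ macrophages against -7.40 in neutrophils, which lies at the neutrophil floor. A_30_P01028984 had 2.19 and 1.88 against -6.17, at 1.26 above that floor, and both macrophage arrays therefore held these members at nearly one level. In the other direction A_30_P01021663 had -8.70 in Ly6C+ macrophages, -0.16 in the CX3CR1+ array and 3.81 in the neutrophil array. A_30_P01020702 was much like it, at -8.46, -0.47 and 3.46. The Ly6C+ values of this pair lay within 0.5 of the floor, so that the size of their folds rests on it, while their CX3CR1+ values were more than 8 log2 above the floor of that array.

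Specificity, taken as a brightest value at least 5-fold above each of the other arrays, was found for 232 of the 2317 members above 0 (10.01%), where 9.12% of all such probes met it and the other probes gave 9.73% when weighted to the brightness of the members. Among these bright probes members were thus about as often specific as others, and the difference of 0.28 percentage points turned to between -1.85 and -1.04 with either median centring, with centring on the E1A rows, or when brightness was matched on the mean of the 3 arrays. Over all members with a brightest value above -6, 10.4% were specific, against 14.2% of the weighted other probes. Members had the lower share in 11 of the 14 bins and the higher share in 2, from 1 to 3. At a lower bar of 2-fold, 38.8% of bright members and 24.9% of weighted other probes were specific with the deposited values. This share was not counted with the other scalings or by cell type. A 2-fold bar is 1 log2. The ERCC rows had median differences of -1.32 for Ly6C+ macrophages minus neutrophils and -1.05 for CX3CR1+ macrophages minus neutrophils. However, 56, 55 and 51 of the 96 ERCC rows lay near the floor in Ly6C+ macrophages, CX3CR1+ macrophages and neutrophils. The lowest values differed by -1.34 and -1.04 in the same order of differences. With a brightest value above 0, the medians were -0.72 and -0.71 for members and 0.01 and -0.15 for other probes. The part of an array offset in the 2-fold share was not tested.

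Nearly all specific members were specific to neutrophils. Of the 232, 221 were brightest in neutrophils, 10 in Ly6C+ macrophages and 1 in CX3CR1+ macrophages. The 221 are 15.1% of the 1464 members with a peak above 0 in neutrophils, where 18.0% of the other probes were specific. Of all bright members 9.54% were specific to neutrophils, against 9.62% of weighted other probes. With the arrays centred on the medians 117 members (5.29%) were, against 6.98%, and with centring on the E1A rows 54 (2.49%), against 4.68%. A_30_P01019676 had the largest gap, with -8.69 in Ly6C+ macrophages, -5.92 in the CX3CR1+ array and 0.01 in the neutrophil array. A_30_P01030803 gave -8.55, -5.09 and 0.32, and A_30_P01017930 gave -8.63, -5.27 and 0.03. A_30_P01020783, at -8.75, -4.55 and 0.73, and A_30_P01017728, at -8.11, -4.50 and 0.75, completed the leading 5, which were 38.0 to 60.9-fold above CX3CR1+ macrophages. In 4 of the 5 the Ly6C+ value lay within 0.5 of the floor, and in all 5 the CX3CR1+ value stood between those of the other arrays. Their neutrophil values, 0.01 to 0.75, lay close above the bar of 0, so that passing it rests on the scaling. The gaps of these 5 to the next array were 3.99 to 4.67 log2 with centring on the E1A rows.

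The CX3CR1+ array was also read over members chosen for a high neutrophil and a low Ly6C+ signal. A total of 89 members, or 4.59% of the 1941 above 0 in neutrophils, had a neutrophil signal of 32 or more times their Ly6C+ signal, compared with 6.36% of the other probes. Their CX3CR1+ signal, as a percentage of the neutrophil signal, had a median of 5.09% and 10th and 90th percentiles of 3.14% and 7.58%, within a range of 1.64 to 16.5%. Median levels of these 89 members were -6.12 in the Ly6C+ array, -3.22 in the CX3CR1+ array and 1.06 in the neutrophil array. The 763 other probes chosen in the same way had a median of 5.58%, with 4.06% and 9.63%. At equal neutrophil signal the classes were closer still, at 4.80% for 66 members and 4.79% for 377 other probes from 0 to 2, and at 5.89% for 23 members and 5.78% for 251 other probes from 2 to 4. No member of the 89 had a neutrophil signal above 4, where 135 other probes had a median of 9.48%. The share was 6.73% for members with the arrays centred on their medians, which shifts the difference between CX3CR1+ macrophages and neutrophils by 0.49. It was not counted with the other scalings, of which quantile normalization and centring on the E1A rows shift that difference by 0.83 and 1.26. The part of neutrophil RNA in the CX3CR1+ values was not tested.

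The 5 members with the highest mean of the 3 values were bright in every cell type, which follows from that choice. Of the 92 members with a brightest value from 5 to 6, 6 (6.52%) were specific to neutrophils by the 5-fold bar, compared with 6.65% of other probes. A_30_P01031448 had the highest mean, with 5.68 in Ly6C+ macrophages, 5.32 in the CX3CR1+ array and 6.93 in the neutrophil array. A_30_P01023587 had 5.70, 5.45 and 6.58, and A_30_P01023029 had 5.74, 5.75 and 6.01. A_30_P01019201, at 5.67, 5.20 and 6.29, and A_30_P01023888, at 5.49, 5.42 and 6.11, completed the 5 with the highest mean. All 5 were highest in neutrophils and within 3.05-fold over the 3 arrays. Centring on the medians or on the E1A rows lowers the neutrophil values by 0.91 or 1.11 against the Ly6C+ values, which is more than the difference between these arrays for 4 of the 5.

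Other members were level across the arrays. A_30_P01024831 had 1.992 in Ly6C+ macrophages, 2.003 in the CX3CR1+ array and 1.975 in the neutrophil array, the smallest range of the 1206 members above 0 in all arrays. A_30_P01018878 had 1.28, 1.30 and 1.26, A_30_P01033640 had 0.16, 0.16 and 0.20, A_30_P01017865 had 2.02, 1.97 and 1.98, and A_30_P01026992 had 0.07, 0.01 and 0.05. This levelness holds for the deposited scaling, and the range of these 5 members rose to 1.22 to 1.30 with centring on the E1A rows.

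Across members, which are not independent replicates, the macrophage arrays ran most closely together. Pearson's correlation over the 16251 members was 0.97 for the macrophage arrays, 0.85 for Ly6C+ macrophages with neutrophils and 0.89 for CX3CR1+ macrophages with neutrophils. Over the 2317 members with a brightest value above 0 it was 0.94, 0.40 and 0.53, and over the 14597 such other probes 0.89, 0.36 and 0.59. These are descriptions of points that share the same arrays, and the correlation over all members includes those near the floor.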

How the data were processed

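The authors deposited 1 table of log2 signal for 55821 rows and 3 arrays, with no file of scanned intensities used here. Per the methods the arrays were read with an Agilent scanner and processed in GeneSpring GX, and the methods also name an Affymetrix array and its algorithm, whereas the row names are those of Agilent. The background correction and the base of the logarithm are not given in the sources used here. Base 2 was assumed, so every fold rests on it. The 75th percentile of each deposited column lies at 0.00 and 140 control rows were left out of all shares. Samples were grouped by the sorting markers in the labels.

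Shares above 0, shares within 0.5 of the lowest value, differences of at least 5-fold between arrays, and a brightest value at least 5-fold above both other arrays were counted for 16251 members and 39430 other probes. To match brightness, other probes were weighted to the members in bins of 1 log2. No test was possible with 1 array for a cell type. Arrays were also centred on their medians, on the median of the other probes or on 10 E1A rows, with the mean of the 3 centres added back, or quantile normalized. Relative to the deposited values the difference between Ly6C+ macrophages and neutrophils shifted by 0.91, 0.65, 1.11 and 1.10, that between the macrophages by 0.42, 0.32, -0.15 and 0.24, and that between CX3CR1+ macrophages and neutrophils by 0.49, 0.33, 1.26 and 0.83.

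Members named are the 5 with the largest gap to the next array for each cell type, the 5 with the highest mean, the 5 above 0 everywhere with the smallest range, and the 2 with the largest difference above 0 in each direction of each pair. The report says where another member was named after its values were seen. The members, the rules and the alternatives were chosen with earlier results of these data known. The counting and the weighting were tested on simulated data. Python 3.11.15, numpy 2.4.6, pandas 2.3.3 and scipy 1.17.1 were used.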

Additional observations from a re-analysis of the deposited data

How the results depend on the processing

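No paired analysis was possible because there is 1 array for each cell type, and no array could be left out. A share was taken as moved when it left the 95% Wilson interval of its main value, which covers counting error only, and a count when it changed by more than 1.5 times. Of 128 values under alternatives, 52 did not move. Apart from the thresholds and filters, which change a count by their construction, the cause was not tested.

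With the arrays centred on their medians, members above 0 made up 11.4% in Ly6C+ macrophages and 9.64% in neutrophils. Members past 5-fold are given below by the array they favoured, which is the array with the higher value. Of these, 124 then favoured the Ly6C+ and 187 the CX3CR1+ array, 1271 the Ly6C+ and 1010 the neutrophil array, and 781 the neutrophil over the CX3CR1+ array. Specific to 1 array were 5.79% of bright members, which is -1.43 percentage points from weighted other probes, and the differences in neutrophil and Ly6C+ peaks were 11.2 and -13.4. With centring on the median of the other probes the shares above 0 were 11.0% and 10.4%, 1075 members favoured the Ly6C+ and 1309 the neutrophil array, the specific share was 6.72% and the differences were -1.07, 13.7 and -16.2. With centring on the E1A rows 11.0%, 12.1% and 8.42% of members were above 0 in Ly6C+ macrophages, CX3CR1+ macrophages and neutrophils. Then 1434 members favoured the Ly6C+ and 851 the neutrophil array, and 1673 the CX3CR1+ and 368 the neutrophil array. The specific share was 2.99%, with a difference of -1.85, and the differences in neutrophil, Ly6C+ and CX3CR1+ peaks were 3.39, -12.6 and 9.22. After quantile normalization 164 members favoured the CX3CR1+ over the Ly6C+ array, 1213 the Ly6C+ and 1020 the neutrophil array, and 989 the CX3CR1+ and 780 the neutrophil array, while the differences in Ly6C+ and CX3CR1+ peaks were -17.9 and -0.59.

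Above a signal of 2 lay 3.90%, 3.74% and 4.71% of members in the same order of arrays, and above the array's median 37.5%, 37.3% and 37.9%. Within 1 log2 of the lowest value lay 27.7%, 25.2% and 27.6%, and in the lowest 20% of the array 21.9% in Ly6C+ macrophages and 22.9% in neutrophils. At 2-fold, 483 members favoured the Ly6C+ and 2233 the CX3CR1+ array, 1675 the Ly6C+ and 9919 the neutrophil array, and 1757 the CX3CR1+ and 7905 the neutrophil array. At 10-fold these counts were 38 and 110, 332 and 939, and 293 and 482. At 2-fold, with the deposited values only, 38.8% of bright members were specific, 14.0 percentage points above weighted other probes. With the brighter value above the median of its array, 44 members favoured the Ly6C+ and 65 the CX3CR1+ array, and the neutrophil array was favoured over the Ly6C+ array by 1198 and over the CX3CR1+ array by 653. With the brighter value above 0 the counts were 10 and 3, 177 and 332, and 159 and 226 in the order given for 2-fold. With low values raised to 1 common floor 169 members favoured the CX3CR1+ over the Ly6C+ array. With brightness matched on the mean of the arrays the specific share was 2.69% and the difference -1.04. Dim signal limits many folds, since for 30.8 to 60.5% of the members past 5-fold, by pair and direction, the lower value lay near the floor.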

Other observations

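The order of the members in the series carried little relation to their signal. The names run without a gap over 16251 consecutive numbers. For the 4132 pairs of neighbouring numbers of which both were above the median in brightness, the correlation of the difference between Ly6C+ macrophages and neutrophils was 0.01 across pairs, and it lay between -0.01 and 0.01 at distances of 2, 5, 10 and 100 numbers. The correlation of the brightest of the 3 values was 0.035 over the same 4132 pairs and 0.01 over all 16250 pairs of neighbouring numbers. Over 16 successive blocks of 1000 numbers from the start of the series, 11.2 to 16.5% of members were above 0 in any array, with a median of 14.4%.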
